A study of Homo sapiens with 3 samples.

Results

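Ribosome peaks were examined on 10 nucleolar ribosome biogenesis factors, of 3807 genes to which any peak was assigned: FBL, NOP56, NOP58, DKC1, NOLC1, NOP2, NOP16, GNL3, NCL and NPM1. The genes were a fixed list, chosen with earlier results of these data known. Each peak was given to the gene of the RefSeq transcript named in its annotation. The assignment gave them 36 mRNA peaks of 11219 in the vector list, 62 of 19920 in the WT list and 17 of 15680 in the G325E list. Intron peaks are described apart. A second count took every peak whose midpoint lay on an exon of the canonical transcript, on the strand of the gene, whatever gene its annotation named. It found 68, 100 and 28 peaks.

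The cells were HEK293T, a human embryonic kidney line, transiently transfected for 24 h and profiled for the mRNA stretches that ribosomes protect. The vector cells received empty pCDNA3.1, the WT cells FLAG-tagged wild-type DDX3X, and the G325E cells FLAG-tagged DDX3X with the G325E substitution found in medulloblastoma. By the labels, all 3 were treated with harringtonine (2 µg/ml, 90 s), which holds ribosomes that are starting, and then with cycloheximide (100 µg/ml), which stops ribosomes that are elongating. The methods of the study name only cycloheximide, and nothing in the lists settles which applied. There was 1 library per construct, so no value below has a replicate error and none was tested. No label names a change to the endogenous DDX3X gene, and the share of cells that took up a construct is not given. A peak is a stretch of bases whose coverage reached the authors' cut-off, not a read, and the lists carry no read depth. Reads per library, which the study tabulates, were not used here, and depth bears on how many peaks reach a cut-off. On DDX3X itself the vector list had 0 exon peaks, WT 31 and G325E 8.

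The labels call the cells neuronal. Of 10 neuronal markers, 2 had exon peaks: the neurofilament genes NEFL with 7, 8 and 12 (vector, WT, G325E) and NEFM with 15, 13 and 30. The other 8, TUBB3, MAP2 and SNAP25 among them, had 0 in every list. Of 7 kidney and epithelial markers, VIM had 14, 16 and 12 peaks, KRT18 had 11 in WT and 0 in the others, and the remaining 5 had 0. The G325E list also differed in base composition. Its peaks held 73.1% GC on average in the 31 bases around their midpoints, against 62.7% in vector and 62.2% in WT.

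The nucleolus is where ribosomal RNA is transcribed, cut, modified and assembled with ribosomal proteins. Small nucleolar RNAs (snoRNAs) guide most of the modifications: C/D snoRNAs work with FBL, NOP56 and NOP58 to methylate the ribose, and H/ACA snoRNAs work with DKC1 to convert uridine to pseudouridine. In human cells most snoRNAs are cut out of the introns of protein-coding genes, and several host genes encode nucleolar proteins themselves. Of the 10 genes, 5 host snoRNAs in the GENCODE annotation, which holds 17 snoRNA loci within them: NOP56, NOP58, DKC1, GNL3 and NCL.

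The stretches below are examples, picked by hand and not by a ranking, of coding stretches on which the lists differed or agreed. All were read from GRCh37, the build of the files, 5′ to 3′ on the strand of the gene, and all are coding.

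Exon 3 of NCL carried the most G325E peaks of any exon of that gene. A stretch of it (chr2:232326511-232326725, minus strand, codons 47 to 118) was covered by 1 WT peak over its whole length of 215 bases, and capitals mark the 183 bases that G325E peaks also covered. Vector had no peak there.
NCL exon 3, codons 47 to 118: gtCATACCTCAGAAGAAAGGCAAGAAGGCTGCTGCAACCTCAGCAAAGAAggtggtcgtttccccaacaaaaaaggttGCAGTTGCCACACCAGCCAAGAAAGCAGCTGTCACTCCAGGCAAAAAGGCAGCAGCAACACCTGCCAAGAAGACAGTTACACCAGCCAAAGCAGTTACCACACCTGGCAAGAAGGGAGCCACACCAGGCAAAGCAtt

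Exon 9 of NCL (chr2:232322354-232322511, minus strand, codons 430 to 483) shows a stretch on which WT alone had peaks. Capitals mark the 112 of 158 bases under its 5 peaks.
NCL exon 9: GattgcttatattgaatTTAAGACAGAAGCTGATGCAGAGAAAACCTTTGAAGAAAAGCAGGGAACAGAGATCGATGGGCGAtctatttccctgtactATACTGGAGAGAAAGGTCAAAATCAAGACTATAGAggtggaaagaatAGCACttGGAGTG

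Exons 10 and 11 of NOLC1 span the point from which G325E peaks were found on that gene. In the end of exon 10 (chr10:103920674-103920850, plus strand, codons 522 to 581) capitals mark the 160 bases covered in both vector and WT, and G325E covered 0. In exon 11 (chr10:103921313-103921419, plus strand, codons 581 to 616) vector and WT covered all 107 bases, and capitals mark the 87 that G325E covered as well.
NOLC1 exon 10: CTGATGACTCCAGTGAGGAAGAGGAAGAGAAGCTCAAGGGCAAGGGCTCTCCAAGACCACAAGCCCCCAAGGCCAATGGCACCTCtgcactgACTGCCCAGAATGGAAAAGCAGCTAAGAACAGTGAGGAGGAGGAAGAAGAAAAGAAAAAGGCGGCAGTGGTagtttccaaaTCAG
NOLC1 exon 11: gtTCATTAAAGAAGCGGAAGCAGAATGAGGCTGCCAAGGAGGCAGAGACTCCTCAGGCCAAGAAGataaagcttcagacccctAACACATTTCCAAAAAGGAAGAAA

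Exon 5 of NPM1 (chr5:170819714-170819820, plus strand), exon 8 of FBL (chr19:40325308-40325453, minus strand) and exon 12 of DKC1 (chrX:154002877-154002980, plus strand) stand for genes with no G325E peak. Capitals mark the bases that both vector and WT covered: 85 of 107 in NPM1, 96 of 146 in FBL and 89 of 104 in DKC1.
NPM1 exon 5: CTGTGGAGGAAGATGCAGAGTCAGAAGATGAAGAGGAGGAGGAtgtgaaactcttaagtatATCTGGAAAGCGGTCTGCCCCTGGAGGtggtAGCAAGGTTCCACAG
FBL exon 8: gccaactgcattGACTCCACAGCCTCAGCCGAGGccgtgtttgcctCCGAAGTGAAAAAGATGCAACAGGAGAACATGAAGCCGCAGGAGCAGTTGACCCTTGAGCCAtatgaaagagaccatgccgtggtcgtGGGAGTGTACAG
DKC1 exon 12: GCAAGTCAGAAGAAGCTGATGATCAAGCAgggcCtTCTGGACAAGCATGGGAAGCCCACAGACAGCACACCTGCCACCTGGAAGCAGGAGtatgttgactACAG

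Exon 2 of NOP16 (chr5:175815236-175815344, minus strand, codons 36 to 72) had peaks in all 3 lists, and capitals mark the 33 bases that every list covered.
NOP16 exon 2: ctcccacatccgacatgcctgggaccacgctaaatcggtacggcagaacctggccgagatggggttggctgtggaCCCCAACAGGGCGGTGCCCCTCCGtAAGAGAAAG

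Where the annotation placed a peak changed what was seen of these genes. Of the 196 exon peaks of the 10 genes over the 3 lists, 99 (50.5%) were annotated to another gene, and 65 of these to a snoRNA. The share was 54.4% in vector (37 of 68, 95% Wilson interval 42.7 to 65.7), 48.0% in WT (48 of 100, 38.5 to 57.7) and 50% in G325E (14 of 28, 32.6 to 67.4). Over all genes it was 19.2%, 16% and 17.8%, so the nucleolar factors stood above the rest in every list and the lists themselves overlapped. Over all snoRNA hosts it was 45.7%, 43.7% and 47.4%. These intervals, like all those below, cover counting error only.

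The annotation reached host exons because a peak close to the start or end of any transcript, a snoRNA included, is put in the promoter-TSS or TTS class of that transcript. In NCL, SNORD82 took 3, 5 and 6 host exon peaks (vector, WT, G325E), SNORA75 took 5, 11 and 3, and SNORD20 took 3 in WT alone. In DKC1, SNORA56 in intron 12 took all 5 vector and all 5 WT peaks, which lie on exons 12 and 13 to either side of it, so that the gene had 0 peaks by its annotation and 5 by its exons. In GNL3, SNORD19B took 3 and 4 peaks in vector and WT, SNORD69 took 4 and 5, and the neighbour GLT8D1 took 3 and 3. In NOP56, SNORD57 took 2 and 1, and the neighbour IDH3B took 2 and 2. On the snoRNAs themselves 1 peak was found in each list, on SNORA75 in intron 12 of NCL, and 0 on the other loci. SNORD57 is not among the 17 loci counted and was not checked for peaks of its own.

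Genes without a snoRNA were touched by their neighbours. The 4 peaks on exons 8 and 9 of FBL in vector, and the 4 in WT, carried the annotation of DYRK1B. NOP16 and its divergent neighbour HIGD2A were exchanged: the 6, 5 and 5 exon peaks of NOP16 named HIGD2A, while the 5, 4 and 3 rows that named NOP16 lay on the opposite strand, outside its exons. The exon count is therefore given beside the annotation count throughout.

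**Figure D1:**
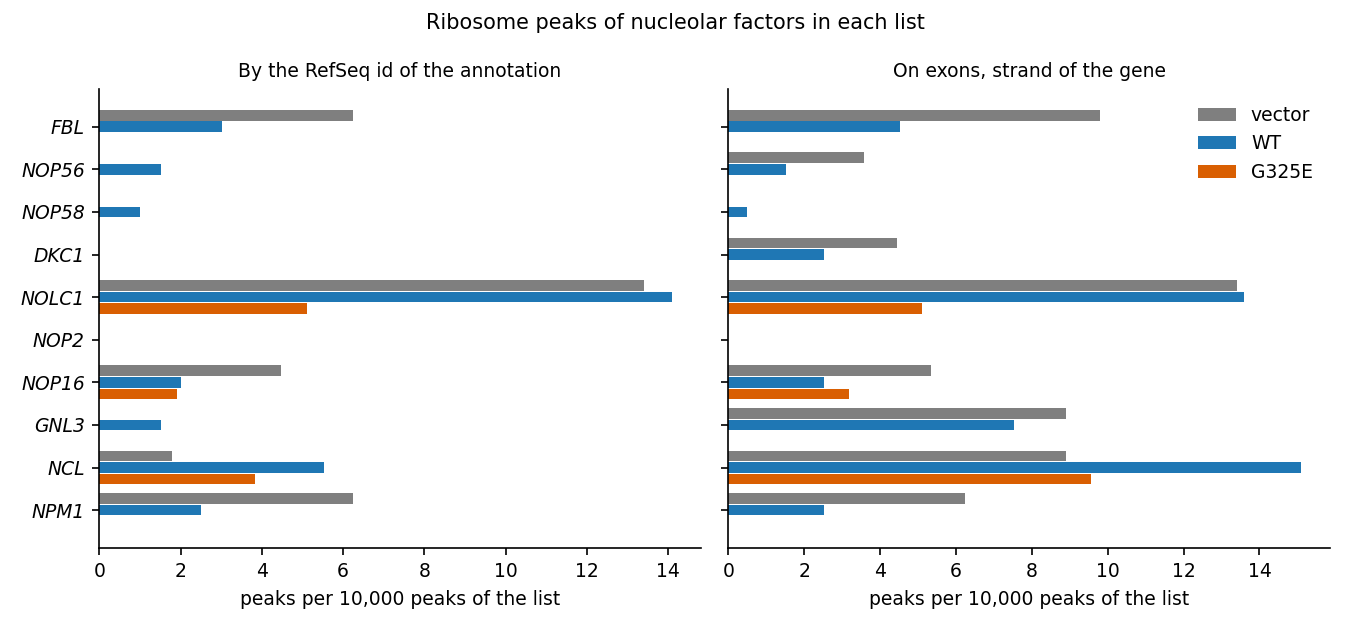
Peaks of each nucleolar factor per 10000 peaks of the list (horizontal axes), by the RefSeq transcript of the annotation (left) and by position on exons of the gene strand (right), with 1 bar per list and 1 library per construct. DKC1 has bars only by its exons, GNL3 reaches 8.91 in vector by its exons, and G325E bars appear on NOLC1, NOP16 and NCL alone under both counts.

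Summed over the 10 genes, mRNA rows by annotation came to 32.1 per 10000 peaks in vector, 31.1 in WT and 10.8 in G325E. Vector and WT lay close together and G325E was low. The G325E sum was 0.348 of the WT sum (log2 ratio −1.52, 95% exact binomial interval −2.39 to −0.73), and its log2 ratio to vector was −1.57 (−2.49 to −0.70). The WT sum did not stand apart from vector (−0.04, −0.66 to 0.59). By exon position the sums were 60.6, 50.2 and 17.9 per 10000, and the log2 ratios −1.49, −1.76 and −0.27 in the same order. Fewer ribosomes on an mRNA and fewer copies of that mRNA cannot be told apart in these lists, since a gene's RNA level is not in them. From separate RNA-seq of transfected HEK293T cells, the paper reports no significant effect of wild-type or mutant DDX3X on mRNA levels. That RNA-seq was not used here.

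The base composition of the G325E list moved with this difference. Peaks of at most 60% GC made up 40.3% of the vector list, 41.4% of WT and 15.4% of G325E. Counted among such peaks only, each list scaled to its own total in that class, the nucleolar factors had 13 annotated rows in G325E and 48 in WT, a log2 ratio of −0.11 (−1.12 to 0.80), and 26 in vector, a log2 ratio of −0.09 (−1.18 to 0.92). By exon position the ratios within this class were −0.16 to WT (−0.92 to 0.55) and −0.43 to vector (−1.23 to 0.32). On this scale the G325E sum did not stand apart from WT or vector, and the intervals were wide. Peaks above 60% GC, the larger part of each list, were not counted apart, so no ratio is given for them. The scale itself changed, since the class held 2413 peaks in G325E, 8249 in WT and 4522 in vector. The part of base composition in the lower G325E number was not tested.

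Gene by gene, a gene with at least 5 peaks in both lists together was called higher or lower where its scaled numbers were at least 2-fold apart, with a list at 0 set to 3 peaks. Between G325E and WT, 5 of the 10 genes could be judged by annotation: 0 were higher and 1, NOLC1, was lower, against 24.2% higher and 14.7% lower over all genes judged. By exons 7 could be judged: 0 were higher and 3 lower (FBL, NOLC1 and GNL3), against 15.5% and 18.4%. Between G325E and vector, 1 of 5 was higher by annotation (NCL) and 4 lower, where 15% and 24.1% of all genes were. The 4 were FBL, NOLC1, NOP16 and NPM1. By exons 0 of 7 were higher and 5 lower (FBL, DKC1, NOLC1, GNL3 and NPM1), where 8.28% and 29.3% of all genes were. Between WT and vector, 1 of 5 was higher (NCL) and 3 lower (FBL, NOP16 and NPM1) by annotation, beside 8.23% and 18.7%. By exons 0 of 8 were higher and 4 lower (FBL, NOP56, NOP16 and NPM1), beside 7.91% and 18.7%. The interval of the log2 ratio included 0 for every gene called between WT and vector, by either count. By exons it ran from −2.57 to 0.291 for FBL and from −4.01 to 1.32 for NOP56 (3 peaks against 4). It ran from −3.14 to 0.884 for NOP16 and from −3.31 to 0.558 for NPM1. For NCL by annotation it ran from −0.565 to 4.85 here and from −1.38 to 4.44 for G325E over vector. The NOP16 call by annotation for G325E over vector had an interval from −3.91 to 1.14. The NOP16 rows by annotation lay on the opposite strand, outside its exons, so its calls by annotation are not about NOP16. By exons NOP16 was within 2-fold for G325E over vector. Both G325E comparisons use the same G325E list, and comparisons with a shared list are not independent of each other.

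Scaling by list totals is not neutral. On that scale the median gene by annotation stood at a log2 ratio of 0.34 for G325E over WT, −0.37 for G325E over vector and −0.56 for WT over vector. By exons it stood at 0.12, −0.48 and −0.61 in the same order. The median was taken over genes with peaks in both lists and at least 5 together, so genes at 0 in a list were left out. With the median gene set to 0 instead, exon counts left 3 genes lower and 0 higher for G325E over WT and also for G325E over vector. For WT over vector the same scaling left 0 lower and 1 higher, and the summed log2 ratio by exons turned from −0.27 to 0.33. The 4 genes called lower in WT than in vector are thus called lower only relative to the list totals.

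The C/D snoRNP proteins had no G325E peak. FBL, the methyltransferase of the complex, had 11 exon peaks in vector, 9 in WT and 0 in G325E, and they covered 35.7% and 30.0% of its coding bases in the first 2 lists. Vector and WT peaks lay on the same exons, 2 to 4 and 8 to 9. With its 0 set to the floor of 3 peaks, G325E was 5.12-fold lower than vector and 2.36-fold lower than WT. The upper 95% limits of the log2 ratio were −1.81 and −0.64, which allow smaller folds. A number of 0 peaks allows a share of up to 0.0191% of the G325E list. FBL has the highest coding GC content of the 10 genes, 57.7%, and its exons with peaks hold 70.8%, 59.8%, 48.4%, 54.8% and 47.6% (exons 2, 3, 4, 8 and 9).

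NOP56 and NOP58 form the scaffold between FBL and the guide RNA. NOP56 had 4 exon peaks in vector, 3 in WT and 0 in G325E, every one of them in exon 12, its last (codons 482 to 571). The 3 rows that its annotation gave it, all in WT, lay past the end of the gene. NOP58 had 0 exon peaks in vector, 1 in WT (codon 507, exon 14) and 0 in G325E. Its coding GC content, 39.7%, was the lowest of the 10 genes. Both genes were at or near the floor of 3 peaks and no fold is given for them.

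DKC1, the pseudouridine synthase of H/ACA particles, had 5 exon peaks in vector, 5 in WT and 0 in G325E. Vector and WT agreed closely, with midpoints from codon 391 to 440 and from 390 to 439, and with 89.4% and 88.5% of the bases of exon 12 covered. These are the bases shown above for exon 12. With its 0 set to the floor of 3 peaks, G325E was 2.33-fold lower than vector. The upper 95% limit of the log2 ratio was −0.36, which allows a smaller fold. Against WT the upper limit was 0.47, so no difference is given there. Exon 13 had 2 peaks in each of these lists, over 75.9% and 82.3% of its bases, and exons other than 12 and 13 carried 0 peaks in every list.

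NOLC1, also called Nopp140, is a chaperone that shuttles snoRNP particles, and it had peaks in all 3 lists. It held 15 exon peaks in vector, 27 in WT and 8 in G325E, or 13.4, 13.6 and 5.1 per 10000. The G325E value was 0.376 of WT (log2 ratio −1.41, −2.76 to −0.23) and 0.382 of vector (−1.39, −2.84 to −0.06). Per length it had 7.15, 12.9 and 3.81 coding peaks per kilobase, and the peaks covered 37.2%, 73.4% and 12.2% of its coding bases. Vector midpoints ran from codon 243 to 677 and WT midpoints from 44 to 675, whereas G325E midpoints ran from codon 592 to 678, within exons 11 to 13. All 8 G325E peaks overlapped a peak of both other lists. In exon 10, the longest coding exon, vector and WT had 7 peaks each, and G325E had 0. The mean GC content of its coding peaks was alike in the lists, at 53.1%, 53.5% and 52.0%.

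NOP2, a methyltransferase of the large-subunit ribosomal RNA, had 0 peaks in every list by either count. NOP16, which takes part in large-subunit assembly, had 6 exon peaks in vector, 5 in WT and 5 in G325E. It was the gene on which the lists agreed best. Each list had 1 peak on the 5′-UTR, 1 over the start codon (midpoint at codon 4 or 5) and 1 at codon 25 or 26, followed by 2 or 3 in exon 2. Of the G325E peaks 5 of 5 overlapped a WT peak and 4 of 5 a vector peak. Scaled, it had 5.35, 2.51 and 3.19 peaks per 10000, with a log2 ratio of G325E over WT of 0.34 (−1.77 to 2.46). Its coding peaks also had the highest GC content of the set, 62.6%, 61.3% and 65.3% on average.

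GNL3, or nucleostemin, is a GTP-binding protein of proliferating cells. It had 10 exon peaks in vector, 15 in WT and 0 in G325E. Vector peaks lay on exons 7 to 15 (codons 209 to 525) and WT peaks on exons 3 to 15 (codons 39 to 525). With its 0 set to the same floor, G325E was 4.66-fold lower than vector and 3.94-fold lower than WT. The upper limits of the log2 ratio were −1.65 and −1.50, which allow smaller folds. Only 3 of these peaks in all, the WT peaks on exons 3 and 4, named GNL3 in their annotation. The mean GC content of its coding peaks was 45.8% in vector and 47.3% in WT.

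NCL, nucleolin, is an abundant RNA-binding protein with a long acidic stretch near its start, and by exon position it had the most peaks of the 10 genes in WT and in G325E. By annotation NOLC1 had the most, with 28 and 8 against 11 and 6 for NCL. It had 10 exon peaks in vector, 30 in WT and 15 in G325E, which is 8.91, 15.1 and 9.57 per 10000. By this count no pair of lists was 2-fold apart, and the log2 ratio was −0.66 for G325E over WT (−1.65 to 0.28), 0.10 for G325E over vector (−1.15 to 1.42) and 0.76 for WT over vector (−0.31 to 1.95). The peaks covered 20.1%, 54.5% and 29.4% of its coding bases.

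The lists differed in where on NCL the peaks lay. In exon 3, of 478 bases, G325E had 6 peaks that covered 311 bases (65.1%), WT had 1 that covered 215 (45.0%) and vector had 0. In exons 4, 5 and 6 all lists had peaks, and exon 5 was covered almost entirely: 100.0% of it in vector and in WT and 97.7% in G325E. From exon 8 to exon 12 only WT had peaks, and exon 7 had 2 in WT, 2 in vector and 0 in G325E. Exon 13 had 4, 5 and 2 and exon 14 had 1 in each. Of the 15 G325E peaks, 9 overlapped a WT peak and 6 a vector peak. The exons with G325E peaks held 52.1%, 46.5%, 46.0%, 38.0%, 56.2% and 45.8% GC (exons 3, 4, 5, 6, 13 and 14), and exons 7 to 12, without a G325E peak, held 36.8% to 49.6%. The mean of the NCL coding peaks was 46.7% in WT and 53.3% in G325E. Codons for aspartate and glutamate made up 24.8% of the whole coding sequence, 17.6% of the codons under vector peaks, 16.3% of those under WT peaks and 23.0% of those under G325E peaks.

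**Figure D2:**
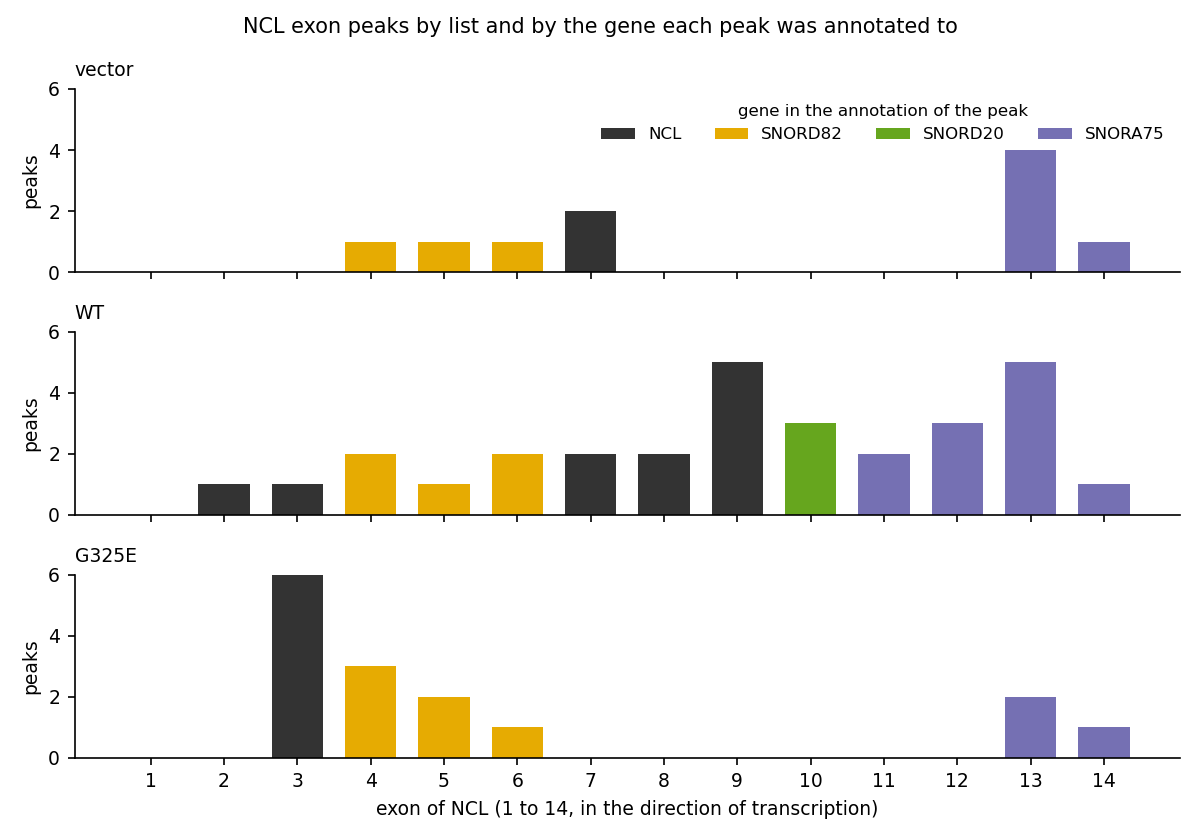
Peaks on each exon of NCL (horizontal axis, exon number in the direction of transcription) in the vector, WT and G325E lists, coloured by the gene that the annotation of each peak named. The G325E list has 6 peaks on exon 3 and none on exons 7 to 12, where WT has peaks on every exon, and exons 4 to 6 and 10 to 14 name snoRNAs.

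NPM1, nucleophosmin, is a nucleolar chaperone that binds ribosomal proteins and histones. It had 7 exon peaks in vector, 5 in WT and 0 in G325E, and with NOLC1 and NOP58 it is a gene whose exon peaks all carried its own RefSeq transcript. Vector and WT peaks lay on the same exons, 5, 6, 8 and 9, and covered 32.9% and 34.1% of the coding bases, exons 8 and 9 entirely in both. With its 0 set to the floor of 3 peaks, G325E was 3.26-fold lower than vector. The upper 95% limit of the log2 ratio was −1.01, which allows a smaller fold. Against WT the upper limit was 0.47, so no difference is given there. NPM1 has 49 named pseudogenes in the annotation, and 8, 10 and 2 peaks lay on these, so reads of near-identical copies may have been placed at either and its counts are uncertain. NCL has 2 named pseudogenes, with 2, 1 and 0 peaks.

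**Figure D3:**
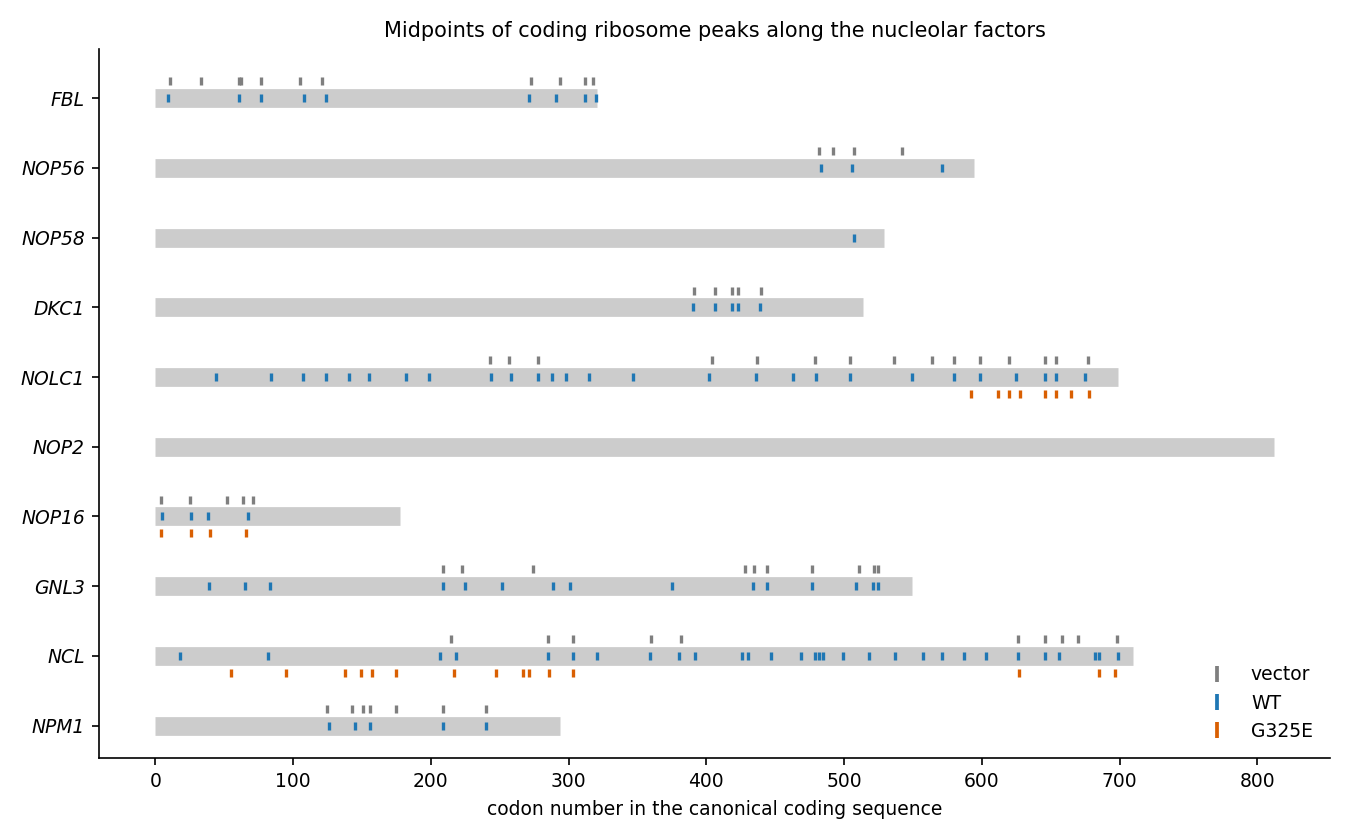
Midpoints of coding peaks along the canonical coding sequence of each nucleolar factor (horizontal axis, codon number), with vector marks above, WT marks on and G325E marks below the grey bar of the coding sequence. G325E marks on NOLC1 lie from codon 592 onward, those on NCL lie mostly between codons 55 and 303, and those on NOP16 lie beside the marks of the other lists.

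Of genes with at least 3 exon peaks in both vector and WT, 5 of 8 nucleolar factors had 0 in G325E: FBL, NOP56, DKC1, GNL3 and NPM1. Over all 998 such genes the share was 23.2%. Genes entered through their vector and WT peaks, so this count can show absence from G325E only, and a filter through G325E peaks was not made. NOP56 had only 4 and 3 peaks in vector and WT, and no difference from WT is given above for DKC1 and NPM1. The share over all such genes moved with the GC content of the coding sequence. It was 36.8% in the lowest of 4 equal classes, then 24.9%, 18.5% and 12.8% in the highest. In the lowest class 3 of 4 nucleolar factors were without a G325E peak, in the next 1 of 3 and in the third 1 of 1, and the highest held 0 of them. The coding GC content of the 3 factors with G325E peaks ran from 46.7% to 53.4%, and that of the 5 without from 42.2% (NPM1) to 57.7% (FBL).

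Coding peaks of the nucleolar factors were of lower GC content than those of other genes in every list. The mean was 51.7% ± 11.9 (SD over 67 peaks) in vector, 50.2% ± 10.1 (99 peaks) in WT and 54.7% ± 7.98 (27 peaks) in G325E, and over all genes 58.7%, 58.1% and 66.9%. Of the WT peaks on these genes, 16 overlapped a G325E peak and had a mean of 55.8% GC, and 83 did not and had 49.1%. Vector peaks gave 56.0% for 14 and 50.5% for 53. The same contrast was seen over all genes, at 63.7% and 55.1% in WT and 63.0% and 54.4% in vector. The part of base composition in the lower G325E peak number on these genes was not tested.

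**Figure D4:**
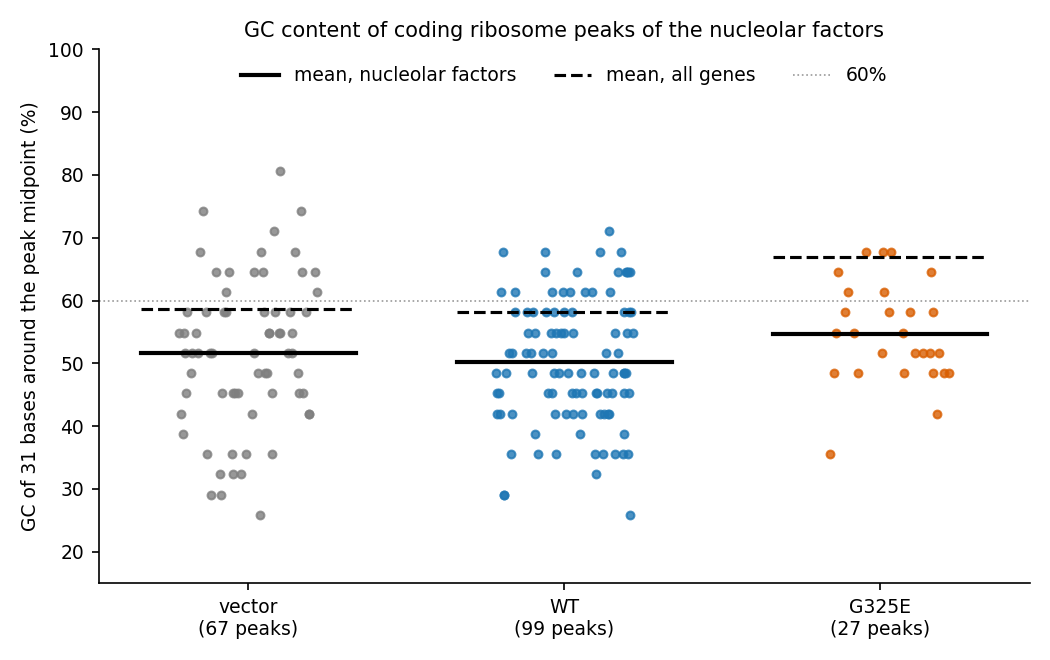
GC content of the 31 bases around the midpoint of each coding peak of the nucleolar factors (vertical axis, percent) in the 3 lists, with 1 point per peak. Solid bars are the means of these peaks, 51.7%, 50.2% and 54.7%, dashed bars the means over all genes, 58.7%, 58.1% and 66.9%, and the dotted line marks 60%.

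Overlap between lists was measured as the share of peaks that met a peak of another list on the same strand by at least 1 base. Of the 68 vector exon peaks of the nucleolar factors, 91.2% overlapped a WT peak, and of the 100 WT peaks 58.0% overlapped a vector peak. Of the 28 G325E peaks 78.6% overlapped a WT peak and 64.3% a vector peak, while 17.0% of WT peaks and 22.1% of vector peaks overlapped a G325E peak. Over all genes, 61.1% of G325E peaks overlapped a WT peak and 46.4% a vector peak, and 37.4% of WT peaks and 51.9% of vector peaks overlapped a G325E peak. The 6 G325E peaks of the nucleolar factors without a WT peak were all on exons 3 and 4 of NCL.

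Along the coding sequence, 34.3% of the peaks of the nucleolar factors lay in its first 50% in vector (23 of 67, 95% Wilson interval 24.1 to 46.3), 39.4% in WT (39 of 99, 30.3 to 49.2) and 59.3% in G325E (16 of 27, 40.7 to 75.5). Over all genes the shares were 49.3%, 48.0% and 62.1%. The G325E value rested on NCL: without it the share was 33.3% (4 of 12), beside 35.1% in vector and 46.4% in WT. NOLC1 and NCL went opposite ways in G325E, with 0 of 8 peaks of NOLC1 and 12 of 15 of NCL in the first 50%.

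Intron rows by annotation numbered 1 in vector, 3 in WT and 0 in G325E. The vector row was 1 base at the edge of exon 2 of FBL. The WT rows were 2 in intron 1 of NCL, of 4 and 22 bases, and 1 base on the strand opposite to GNL3.

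Other nucleolar factors were taken from a list of 108 genes of snoRNP assembly, ribosomal RNA transcription, small-subunit and large-subunit maturation. It had exon peaks on 36 genes in vector (193 peaks), 71 in WT (454) and 33 in G325E (167). Between G325E and WT 4 of 44 genes judged were higher and 14 lower, which as shares are to be read beside the 15.5% and 18.4% of all genes. Between G325E and vector 1 of 28 was higher and 12 lower, beside 8.28% and 29.3% of all genes. Between WT and vector 4 of 43 were higher and 5 lower, beside 7.91% and 18.7%.

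The genes furthest apart went both ways. CCDC86 had 0 peaks in vector, 2 in WT and 14 in G325E, and DDX54, a helicase, had 0, 1 and 8. BRIX1, a large-subunit assembly factor, had 3, 2 and 4. Its log2 ratio of G325E over WT, 1.35, had an interval of −1.46 to 4.81, which includes 0. NHP2, with 2, 2 and 4 peaks, had the same ratio and interval. In the other direction DDX21, a helicase of ribosomal RNA transcription, had 2, 10 and 1, and RRP7A had 6, 9 and 1. TBL3, a component of the small-subunit processome, had 0, 18 and 2. For RRP7A the interval of G325E over WT, −8.28 to 0.03, also included 0. PELP1 had 15, 17 and 0 peaks, at least 6.99-fold lower in G325E than in vector against the floor of 3 peaks, and RRS1, needed to bring 5S RNA into the large subunit, had 12, 12 and 0, at least 5.59-fold lower. Coding GC content was 63.0% in CCDC86, 63.6% in DDX54, 57.1% in NHP2 and 40.8% in BRIX1, which were called higher in G325E than in WT. Among those called lower it was 61.2% in PELP1, 64.6% in RRS1, 63.7% in TBL3, 60.4% in RRP7A and 44.7% in DDX21. The other genes called lower were MPHOSPH10, LTV1, WDR43, GNL2 and DDX24, at 39.3% to 49.5%, and NOP14, SNU13, UBTF and PES1, at 51.9% to 56.7%. The part of base composition in these calls was not tested. GNL2 had 2, 13 and 0 peaks, BUD23 had 3, 2 and 2, and NOL10 had 6, 4 and 0.

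Among 560 genes with at least 20 annotated peaks over the lists, those whose scaled numbers were spread over the lists most like the sum of the nucleolar factors were ATAD3A (9, 16 and 4 peaks, distance 0.015 between the shares of the 3 lists), GPI (15, 26 and 8, 0.019) and RBM42 (8, 15 and 4, 0.026). The likeness rests on 3 values per gene. By exon peaks, over 388 genes, they were DAZAP1, LMAN2 and HNRNPH1, which were not among the first set.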

How the data were processed

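HEK293T cells expressing vector, WT or G325E DDX3X were profiled with 1 library per construct, grouped by their labels. The deposited files list the positions of ribosome peaks, in a unit of genome bases (hg19, GRCh37), with no height, read count or score. Per the study's methods, the authors trimmed reads (cutadapt), aligned them (BWA 0.5.5, from the submitters' processing notes), removed duplicates, called peaks in each sample from Bambino coverage, refined and reviewed them, and annotated them with HOMER, whose version is not given in the sources used here. Peak numbers depend on sequencing depth through the coverage cut-off, and the scaling used here does not take it into account.

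The first base of a peak was taken as the file's start minus 1, because this placed 1697, 3025 and 1300 starts on exon starts (vector, WT, G325E), against 59, 84 and 85 with the start as given. Ends matched as given. A RefSeq id was present in 45926 of 46819 rows. Its gene was found for 45115 through the RefSeq gene table and for 540 through id and name pairs in the lists. For 271 the id was not matched and Gene Name was used. mRNA rows are all classes but intron and intergenic. Exons are those of GENCODE release 44 canonical transcripts lifted to GRCh37. Peaks were scaled to 10000 per list. A call needed 5 peaks in both lists together and a 2-fold difference, with 3 peaks as the floor of a list at 0. Shares have 95% Wilson intervals and ratios exact binomial ones, which cover counting error only. No replicate existed and no test was run.

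Named genes were the 10 members, per comparison up to 3 called genes of the wider list in each direction by scaled fold, the 3 genes of most like profile, and DDX3X. The members and lists were chosen with earlier results of these data known. Alternatives changed the gene assignment, rows, strand, scaling, peak merging (gaps under 10 bases), short peaks (under 15 bases), GC class, minimum and fold. The scripts were tested on simulated data. Software was Python 3.11.15, numpy 2.4.6, pandas 2.3.3, scipy 1.17.1, statsmodels 0.14.6, pysam 0.24.0 and matplotlib 3.10.9.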

Additional observations from a re-analysis of the deposited data

How the results depend on the processing

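Of 110 alternative values, 90 stayed within the interval of the reported value or within 1.5 times its count and 20 moved. Reversal was defined only for a summed log2 ratio whose reported interval excluded 0. That covers the 15 alternatives each of G325E over WT and of G325E over vector, and 0 of these reversed. Gene counts and shares had no reversed class. The WT over vector ratio turned from −0.044 to 0.521 under median scaling by annotation. It was counted as unmoved, since its interval (−0.659 to 0.591) includes 0. No paired analysis was possible because each construct has 1 library and the labels carry no replicate numbers, and for the same reason there was no replicate to leave out.

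The summed log2 ratio ran over its alternatives from −2.01 to −0.11 for G325E over WT, from −2.11 to −0.09 for G325E over vector and from −0.27 to 0.52 for WT over vector, where the direction turned with the scaling. The values that moved were those of peaks of at most 60% GC: −0.111 and −0.0939 by annotation, and −0.16 and −0.43 by exons, for G325E over WT and over vector. The combinations of exons with the GC class or with median scaling, the id matching through the lists alone and the overlap of at least 50% of a peak were chosen after seeing the data.

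The number of genes at least 2-fold apart, 1 for G325E over WT, became 3 by exons, 2 by bases covered or by median scaling, and 0 among peaks of at most 60% GC or at 3-fold. The 5 for G325E over vector became 2 by Gene Name alone or at 3-fold, 3 with neighbouring peaks merged, and 1 among peaks of at most 60% GC or with at least 10 peaks. The 4 for WT over vector became 2 by Gene Name, by bases covered or among peaks of at most 60% GC, and 1 by median scaling or at 3-fold. The G325E share of peaks before the midpoint of the coding sequence became 33.3% without NCL. Peak numbers of 0 to 30 per gene and list limit every ratio of a single gene, and variation between cultures was not measured.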
